A study of Mus musculus with 4 samples.

Results

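Cdh11 encodes cadherin-11, a calcium-dependent adhesion protein of mesenchymal cells that is also called OB-cadherin. In Cdh11, 4 single-base changes were found among the 1844 distinct coding variants listed over 4 exome tables, by taking every row that carried the Cdh11 symbol. In YUMM 1.1 they made up 4 of 428 listed sites, in YUMM 1.3 they made up 2 of 225 and in MB49 they made up 3 of 707, while UV YUMM 1.1-9 had 0 of 653. The gene was chosen by the listing of the same changes in YUMM 1.1, YUMM 1.3 and MB49, a listing that depends on the reads with the new base, so the sharing itself is a description and carries no test.

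YUMM 1.1 and YUMM 1.3 are mouse melanoma lines from genetically engineered mice, and MB49 is a mouse bladder carcinoma line. UV YUMM 1.1-9 is named after YUMM 1.1, and its table lists only mutations additional to those of YUMM 1.1. Per the labels' protocols, DNA of the cultured lines went into exome capture and paired-end sequencing, with a mean depth given as 80X. The sample source is labelled as mouse tumours, although the extraction protocol describes cell lines. The labels state no genotype, passage or clonal origin, and no line has a second library. No sample label reads MB49; its table was assigned by elimination to the sample labelled 49XC-49. The growth protocol speaks of male tumour cells isogenic to C57Bl/6J, and no matched normal DNA was analysed here. Median depth over the listed sites ran from 45 reads in UV YUMM 1.1-9 to 107 in YUMM 1.3.

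Classical cadherins bind between neighbouring cells through a row of extracellular repeats, of which the outermost, called EC1, swaps a strand with its partner on the opposing cell. Their cytoplasmic tails hold beta-catenin and p120-catenin, and alpha-catenin links the complex to actin. Cadherin-11 belongs to the type II branch of the family and is known from bone, synovium and other connective tissue and from invasive tumour cells.

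All 4 changes lay in a single short stretch of the gene. RefSeq places Cdh11 at chr8:102632095-102785493 of GRCm38, the assembly also called mm10, over 153399 bases. The changes span 159 bases, from 102673895 to 102674053, or 0.104% of that length. That length includes introns, while the listed variants are coding, so the share of the coding sequence is larger and was not computed. Their distances in the genome and in the coding sequence are equal for each of the 6 pairs (16 to 158 bases), so no intron separates them and they share 1 exon. Coding position increases as genome position decreases, and the coding base is the complement of the genome base at each site, so the gene is read from the minus strand. The changed residues run from 94 to 147 in the numbering of the tables, near the amino end of the protein, where EC1 is found in cadherin-11. V147D replaces a hydrophobic valine with the acidic aspartate, through codon gTt becoming gAt at 8:102673895. R137K exchanges one basic residue for another, arginine for lysine, through aGa becoming aAa at 8:102673925. I100F puts phenylalanine in place of isoleucine, through Att becoming Ttt at 8:102674037. The change at 8:102674053 turns ggT into ggA and leaves glycine 94 as it is. These codons are printed because they are all that the tables give of the sequence at each site, with the changed base in capitals.

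The changes differed in their predicted effect. SIFT, which scores how well a substitution is tolerated from related proteins, called V147D deleterious with a score of 0 and I100F deleterious with 0.01, whereas R137K was called tolerated with 0.66. Among missense changes with a SIFT class, deleterious calls, those of low confidence included, made up 43.2% in YUMM 1.1, 44.2% in YUMM 1.3 and 55.1% in MB49. With each change named by its pyrimidine base, 3 of the 4 were T>A and 1, R137K, was C>T. Among all listed sites T>A accounted for 47 in YUMM 1.1, 30 in YUMM 1.3 (13.3%) and 173 in MB49 (24.5%), and for 11 of the 53 sites present in all 3 tables (20.8%).

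V147D and R137K, 2 of the 4 changes, were listed in YUMM 1.1, YUMM 1.3 and MB49 alike. At V147D the new base was read in 13 of 79 reads in YUMM 1.1, in 18 of 119 in YUMM 1.3 and in 9 of 68 in MB49. The allele fraction, which is the share of reads with the new base, was therefore 16.5% for YUMM 1.1 (exact Clopper-Pearson 95% interval 9.06 to 26.5). It was 15.1% for YUMM 1.3 (interval 9.22 to 22.8) and 13.2% for MB49 (interval 6.23 to 23.6). The 3 intervals overlap, and most reads carried the reference base in each line. At R137K the new base was read in 18 of 73 reads in YUMM 1.1, in 20 of 129 in YUMM 1.3 and in 17 of 69 in MB49. This gave 24.7% for YUMM 1.1 (interval 15.3 to 36.1), 15.5% for YUMM 1.3 (interval 9.73 to 22.9) and 24.6% for MB49 (interval 15.1 to 36.5). YUMM 1.1 and MB49 were nearly equal, YUMM 1.3 was lower, and all 3 intervals overlap.

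**Figure D1:**
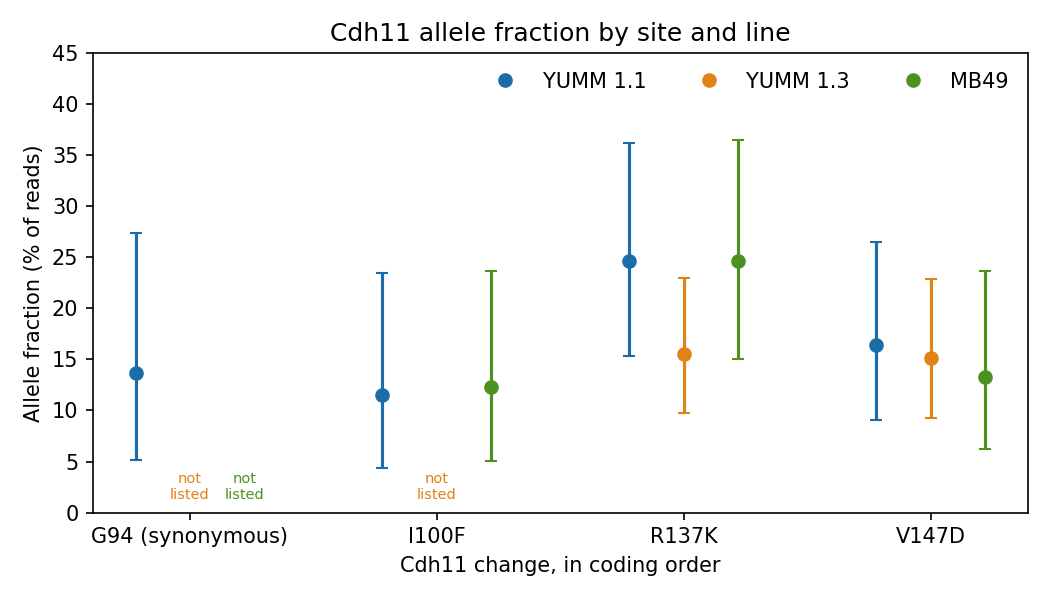
Allele fraction (percent of reads with the new base, vertical axis) of each Cdh11 change, in coding order along the horizontal axis, in YUMM 1.1, YUMM 1.3 and MB49; points are single libraries and bars are exact 95% intervals for counting error. The points lie between 11.5% and 24.7%, with R137K in YUMM 1.1 and MB49 highest, and the intervals of the lines overlap at each site.

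The other changes were listed in fewer lines and at lower read counts. I100F was read in 6 of 52 reads in YUMM 1.1, or 11.5% (4.35 to 23.4), and in 7 of 57 in MB49, or 12.3% (5.08 to 23.7). The synonymous change at glycine 94 was read in 6 of 44 reads in YUMM 1.1 alone, or 13.6% (5.17 to 27.4). These are close to the lower limit of the tables, since no row of the 3 single-line tables has under 5 reads with the new base or an allele fraction below 10%. I100F is not listed in YUMM 1.3, and the change at glycine 94 is listed in neither YUMM 1.3 nor MB49. The tables give no reads for sites they do not list, so these absences set no level. Just inside the requirement of all 3 tables stands V147D, with 9 reads with the new base in its lowest line, and just outside it I100F, with 6 and 7 reads in YUMM 1.1 and MB49.

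In YUMM 1.1 depth declined across the stretch, with 79 reads at V147D, 73 at R137K, 52 at I100F and 44 at glycine 94. MB49 had 68, 69 and 57 reads at its 3 sites. YUMM 1.3 was deeper, with 119 and 129 reads at its 2 sites. Depth at V147D and R137K was close to the middle of each table, above that of 52.6% to 57.9% of its rows. Intervals and tests here cover counting error only. They treat each read as an independent molecule, which the counts cannot show. V147D and R137K lie 30 bases apart, less than the length of a read, so many reads may cover both and their counts are not independent of each other. The tables do not say whether the changes stand on the same molecules.

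**Figure D2:**
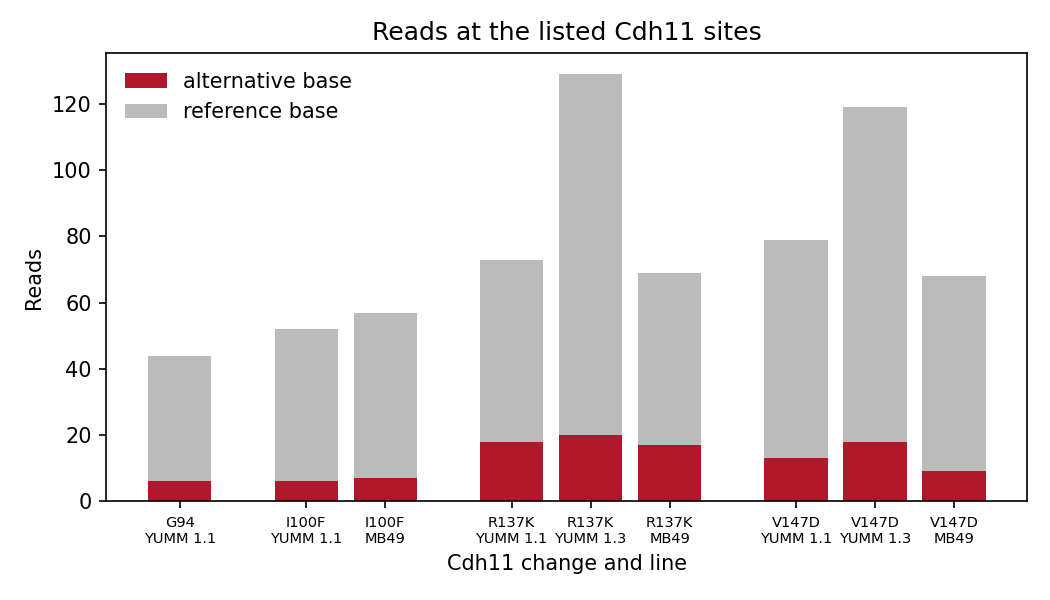
Number of reads (vertical axis) with the new base, dark, and the reference base, light, stacked for each listed Cdh11 change and line. Reads with the new base number from 6 to 20 per bar and the total from 44 to 129, with the 2 YUMM 1.3 bars tallest.

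Within each line the intervals of the Cdh11 sites overlap. In YUMM 1.1 the allele fractions ran from 11.5% at I100F to 24.7% at R137K over 4 sites, with a mean of 16.6%. In MB49 they ran from 12.3% at I100F to 24.6% at R137K over 3 sites, with a mean of 16.7%. In YUMM 1.3 the 2 sites were nearly equal, at 15.1% and 15.5%. R137K was the highest site in each of these lines, and in YUMM 1.3 it was so by a margin far inside its interval. The mean over V147D and R137K was 20.6% in YUMM 1.1, 15.3% in YUMM 1.3 and 18.9% in MB49. Added over both sites, the counts with the new base were 31 of 152 in YUMM 1.1, 38 of 248 in YUMM 1.3 and 26 of 137 in MB49. A read that covers both sites is counted at each, so these sums are not numbers of distinct reads.

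It was then asked whether the lines differed in allele fraction at the sites they share, a comparison that the choice of the gene did not use beyond the lower limit of each table. Every site shared by a pair of lines was tested by Fisher's exact test on the reads, two-sided, with Benjamini-Hochberg adjustment over all 222 site and pair combinations, of which 7 were in Cdh11. Such a test compares 2 libraries and not 2 tumour types. At R137K the difference of YUMM 1.1 minus YUMM 1.3 was 9.15 percentage points (Newcombe 95% interval -1.97 to 21.3) and that of YUMM 1.3 minus MB49 was -9.13 (interval -21.6 to 2.14), with an adjusted p of 0.647 for each by the exact test. For YUMM 1.1 minus MB49 the difference at the same site came to 0.020 percentage points, with an interval of -14.1 to 14.0 (exact test, adjusted p = 1). At V147D YUMM 1.1 minus YUMM 1.3 was 1.33 percentage points (-8.66 to 12.4), YUMM 1.1 minus MB49 was 3.22 (-8.79 to 14.7) and YUMM 1.3 minus MB49 was 1.89 (-9.48 to 11.6), each with an adjusted p of 1 by the exact test. At I100F the exact test gave an adjusted p of 1 for YUMM 1.1 minus MB49, with a difference of -0.74 percentage points (interval -13.3 to 12.3).

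None of these 7 Cdh11 comparisons passed the threshold of 0.05 in Fisher's exact test, and 0 of the 7 had an unadjusted p under 0.05. Differences of up to 21.6 percentage points lie within the intervals, so equality is not shown. Few shared sites passed in general: 1 of 97 between YUMM 1.1 and YUMM 1.3 (1.03%), 2 of 64 between YUMM 1.1 and MB49 (3.12%) and 3 of 61 between YUMM 1.3 and MB49 (4.92%). At unadjusted p under 0.05 in the same test the numbers were 12 of 97, 11 of 64 and 9 of 61, in the same order. With only 7 comparisons, which reuse the same libraries, the count of 0 in Cdh11 cannot be told apart from the background of all shared sites.

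**Figure D3:**
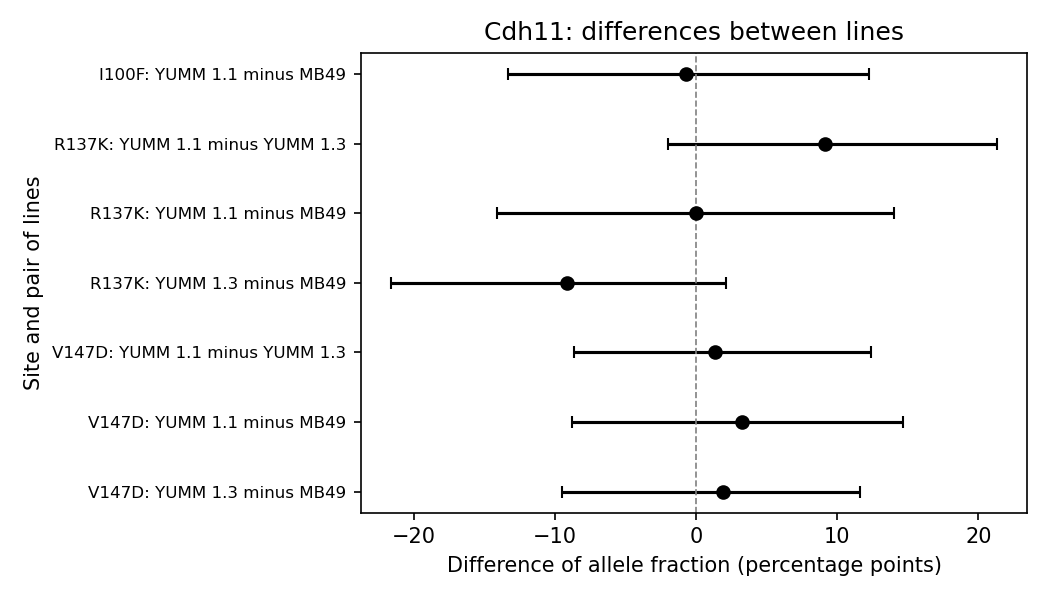
Difference of allele fraction in percentage points (horizontal axis) for each Cdh11 site and pair of lines (rows), with Newcombe 95% intervals; the dashed line marks 0. The interval includes 0 in each of the 7 rows, and the 2 comparisons of R137K with YUMM 1.3 lie farthest from 0, at 9.15 and -9.13.

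V147D and R137K were 2 of 53 sites listed in YUMM 1.1, YUMM 1.3 and MB49 alike. The allele fraction of these 53 sites had a median of 25.1% in YUMM 1.1, 25% in YUMM 1.3 and 26.8% in MB49, and ran from 10.4% to 73.9% over the 3 lines. By the mean over the lines, V147D stood seventh from the bottom at 14.9% and R137K stood at rank 22 with 21.6%. The range over the lines was 3.22 percentage points for V147D and 9.15 for R137K, against a median of 4.35 for the 53 sites. The Cdh11 sites were read less deeply than most of the others. Their 73 and 79 reads in YUMM 1.1, 129 and 119 in YUMM 1.3 and 69 and 68 in MB49, at R137K and V147D in turn, compare with medians of 273, 272 and 223 reads over the 53 sites in the same order of lines. Between 6 and 10 of the 53 sites had fewer reads than a Cdh11 site in a given line.

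**Figure D4:**
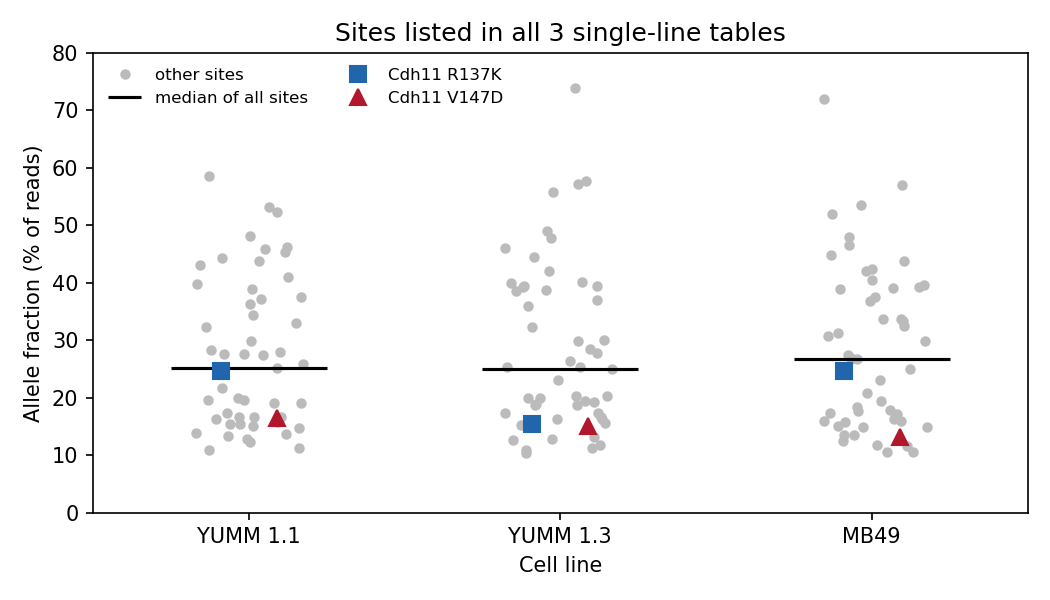
Allele fraction (percent of reads, vertical axis) in YUMM 1.1, YUMM 1.3 and MB49 of the 53 sites listed in all 3 tables; grey points are other genes, bars are medians over all sites, and the square and triangle are Cdh11 R137K and V147D. Both Cdh11 sites lie below the median in each line, with V147D the nearer of the 2 to the bottom of the range.

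The 53 sites fell in 38 genes, 25 of which carry predicted-gene symbols that begin with Gm and a digit or with LOC. Of these genes 14 had at least 2 such sites. LOC108168466 had 3, and 2 sites each were found in Cdh11, Gm10220, Vmn1r2, a vomeronasal receptor, Hjurp, the chaperone of the centromeric histone CENP-A, Gm21190, Mroh2a, Gm15433, Speer4d, Gm13212, Gm21671, Eri1, a 3' exonuclease of histone mRNA, Gm21115 and Gm13154. Likeness to Cdh11 was measured as the root mean square difference from its mean allele fractions in the 3 lines. The nearest gene was LOC101055758, with 1 site at 17.3% in YUMM 1.1, 18.8% in YUMM 1.3 and 17.7% in MB49, a difference of 2.88 percentage points. Gm10220 followed at 3.09, Vmn1r2 at 3.36, Hjurp at 3.52 and Sfi1, a centrosomal protein gene with 1 site, at 3.55. By the mean of V147D and R137K, Cdh11 was lowest in YUMM 1.3, but at V147D alone MB49 was lowest, at 13.2% against 15.1%. In YUMM 1.3, 4 of these 5 genes, LOC101055758, Gm10220, Hjurp and Sfi1, were highest. For Sfi1 the values were close, at 19.9% in YUMM 1.3 and 19.6% in YUMM 1.1. No Cdh11 difference between lines passed the threshold above. The ranks of likeness rest on 3 values per gene.

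The 4 Cdh11 sites of YUMM 1.1 lie closer together than those of the other genes with as many sites. There 6 genes had at least 4 sites, and only Cdh11 held them within 159 bases; Gm15433 spread its 4 over 844 bases, Zscan4c its 5 over 2757 and Itga6 its 12 over 29304. The spans of Ttn and LOC100038947, each with 4 sites, were 117945 and 36163 bases. In MB49, where the 3 Cdh11 sites span 143 bases, 13 genes had at least 3 sites, and Tdpoz2 with 133 bases was the other one within that length. In YUMM 1.3 the 31 bases between and including its 2 sites were matched or undercut by 12 of the other 39 genes with at least 2 sites. The limits of these counts were set by Cdh11 itself, and genes close to them were also listed. In YUMM 1.1, LOC101055758 held 3 sites within 135 bases. In MB49, Sult2a6 held 3 within 145 bases and Olfr141 held 3 within 152, just over the Cdh11 span. These spans are a description of the tables, with no test. They were measured along the genome, with any introns between sites included. The next listed site on chromosome 8 outside Cdh11 was in Ces2b, 2160831 bases away, in YUMM 1.1 and in Ces2b, 2162209 bases away, in MB49. In YUMM 1.3 it was in Edc4 at a distance of 3215116 bases.

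Genes of the cadherin and catenin families were looked up in all 4 tables. The list held 31 genes, made up of 23 cadherins, Cdh11 included, and 8 catenins. A protein-changing variant was listed in 3 of the 31 in YUMM 1.1 (9.68%), 1 in YUMM 1.3 (3.23%), 3 in MB49 (9.68%) and 1 in UV YUMM 1.1-9 (3.23%). Through the choice of the gene, Cdh11 is in the counts of YUMM 1.1, YUMM 1.3 and MB49. In YUMM 1.3 it is the only gene counted. Among all 21896 protein-coding genes the share was 1.07% in YUMM 1.1, 0.543% in YUMM 1.3, 2.06% in MB49 and 1.80% in UV YUMM 1.1-9. Over the tables together 6 of the 31 had such a variant, or 19.4%, against 4.98% of all protein-coding genes, and Cdh11, chosen for its variants, is one of them. Gene length was not taken into account, and no test was made. The UV YUMM 1.1-9 list reaches lower than the others, to 3 reads with the new base and an allele fraction of 3.62%. Its 1 counted gene, Ctnna2, was listed at 3 such reads, below the minimum of 5 in the other lists.

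The changes in the other listed genes of the 31 were each in 1 table, whereas sites in more than 1 table did occur among the protocadherins described last. In YUMM 1.1, S747Y in Cdh7, a type II cadherin, was read in 16 of 48 reads, or 33.3% (20.4 to 48.4). H414Y in Cdh13, the membrane-anchored T-cadherin that lacks a cytoplasmic tail, was read there in 5 of 41 reads, or 12.2% (4.08 to 26.2). In MB49, Cdh15, the muscle cadherin, carried Q195L in 28 of 57 reads, or 49.1% (35.6 to 62.7), and the stop gain K309* in 5 of 41, or 12.2% (4.08 to 26.2). G396D in Cdh22, another type II cadherin, was read there in 8 of 12 reads, or 66.7% (34.9 to 90.1). Cdh18 carried a synonymous change in MB49 in 25 of 56 reads. In UV YUMM 1.1-9, V189L in Ctnna2, the alpha-catenin of neurons, was read in 3 of 28 reads, or 10.7% (2.27 to 28.2). The Cdh11 fractions in MB49, at most 24.6%, stood below the Q195L and G396D values, while K309* at 12.2% was close to I100F at 12.3%. In MB49 as a whole the median allele fraction was 45.7%, and 6.08% of its rows lay below V147D and 13.9% below R137K. In YUMM 1.1, whose median was 24.9%, 23.8% of rows lay below V147D and 49.5% below R137K, and in YUMM 1.3, whose median was 19.4%, the shares were 33.8% and 35.6%. Protocadherins, desmosomal cadherins and the Fat, Dachsous and Celsr genes, 87 in all, were counted apart. A protein change was listed in 2 of these 87 in YUMM 1.1 (2.30%, against 1.07% of all protein-coding genes), 2 in YUMM 1.3 (2.30% against 0.543%), 6 in MB49 (6.90% against 2.06%) and 3 in UV YUMM 1.1-9 (3.45% against 1.80%), with no test made. The protocadherin Pcdhb7 had 2 sites listed in both YUMM 1.1 and YUMM 1.3. Its L523P change was read in 60 of 270 reads in YUMM 1.1 and in 43 of 227 in YUMM 1.3, and a synonymous site in 52 of 261 and in 27 of 211 reads of the same lines.

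UV YUMM 1.1-9 listed no Cdh11 site. Its table leaves out what YUMM 1.1 already carries, and all 4 Cdh11 changes are in the YUMM 1.1 table, so the reads at these sites in UV YUMM 1.1-9 were not analysed here. Its nearest listed site on chromosome 8 was in Cmtm2a, 1617217 bases from the Cdh11 stretch.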

How the data were processed

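Exome DNA of 4 mouse lines was measured, with 1 library each. The deposited tables give, per the file headers, whole-number read counts with the reference and the alternative base at each listed site, not normalized. Build mm10 and the tools BWA 0.7.5a, SAMtools, Picard, GATK and FastQC appear, without roles, in the submitters' processing notes; no source used here names the variant caller or its filters. How reads from near-identical sequence were placed is not given either, which can change allele fractions. Rows of equal position and new base were counted once (429 rows became 428 in YUMM 1.1, and 658 became 653 in UV YUMM 1.1-9).

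Allele fractions, Clopper-Pearson and Newcombe intervals at 95%, Fisher's exact tests and Benjamini-Hochberg adjustment over 222 tests (threshold 0.05) were computed with Python 3.11.15 and SciPy 1.17.1. The test step was tested on simulated data. Symbols were taken from the tables and matched to RefSeq GRCm38.p6. Named genes are Cdh11, the 5 genes nearest to it in allele fraction, and genes with at least as many sites in 3 tables. Cadherin or catenin genes with a protein change are named too. Cdh18, Pcdhb7, Gm15433, Zscan4c, Itga6, Ttn, LOC100038947, Tdpoz2, Sult2a6, Olfr141, Ces2b, Edc4 and Cmtm2a were named after their values were seen. The gene and the lists were chosen with earlier results of these data known. A planned alignment with other type II cadherins was not made, since no protein sequence was used here. Alternatives were a minimum allele fraction, a minimum depth, other sets of sites, adjustments, tests and measures of likeness.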

Additional observations from a re-analysis of the deposited data

How the results depend on the processing

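Under the alternatives, 54 recomputed values were counted as kept, by side of the threshold or by spread, and 4 were not. The 54 include the Cdh11 differences under another test, adjustment or set of sites, where only the adjusted p can change. They also include the change from 6 to 4 cadherin and catenin genes given below. No Cdh11 site kept an allele fraction of at least 20% in all 3 single-line tables, so the count of shared Cdh11 sites became 0 in place of 2. With only sites of all 3 tables, 0 of 53 differed between YUMM 1.1 and YUMM 1.3 in place of 1. Between YUMM 1.1 and MB49, 6 sites differed with adjustment within each pair of lines and 5 by the chi-square test, in place of 2 by Fisher's exact test; none of these was in Cdh11. The adjusted p of R137K ran from 0.560 to 0.664 for YUMM 1.1 against YUMM 1.3 and from 0.561 to 0.702 for YUMM 1.3 against MB49. Leaving out V147D or R137K in turn gave allele fractions between 16.5% and 24.7% for YUMM 1.1, between 15.1% and 15.5% for YUMM 1.3 and between 13.2% and 24.6% for MB49. Both other measures of likeness kept 4 of the 5 nearest genes, with Gm21119 or Gm21680 as the new one. The cadherin and catenin genes with a protein change numbered 4 in place of 6 at an allele fraction of at least 20%, and 4 at a depth of at least 30 reads. The causes of these shifts were not tested. No paired analysis was possible because each line has 1 library. At R137K, with 73 reads in YUMM 1.1 and 129 in YUMM 1.3, a difference of 9.15 percentage points did not pass the threshold.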
